A study of Homo sapiens with 2 samples.

Results

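The solute carriers are a large set of membrane proteins that move amino acids, sugars, ions, metals, vitamins and metabolites across the cell surface and the membranes of organelles. Each gene is named SLC, a family number, the letter A and a member number, and members of a family usually carry related substrates. The names described here are those that begin with this pattern and hold no hyphen. Antisense and divergent transcripts named with a hyphen were thereby left out. There were 206 such names on 587 transcript rows, and 91 of them, on 192 rows, carried a number. The 206 include names that go on after the member number, such as SLC22A18AS, SLC7A6OS, SLC9A3R1 and the pseudogene SLC22A20P. These examples carried no number, while SLC4A1AP did. These 91 are the members, out of 9253 names with a number in all. The choice used the name and the presence of a number alone. A row carried a number only where it was above 0 in at least 1 of the libraries.

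The RNA came from 95D, a lung cancer cell line of human origin and wild-type genotype, with 1 library from cells kept for 48 h in glutamine-free medium and 1 from cells kept for 48 h in glucose-free medium, called the glutamine-free and the glucose-free library below. Both cultures had first spent 24 h in complete medium, and both deprivation media held dialysed serum, from which small molecules have been removed. No library from fed cells was analysed here, so neither condition has a baseline. With 1 library per condition there is no test, and the difference between the libraries is a description of those libraries. The series' title and design text speak of RNA bound to the m6A demethylase ALKBH5, but the labels of both samples say total RNA. Whether either library is a pull-down cannot be told from the labels. The value column of the glucose-free sample's table is headed Glu, and the description of the glutamine-free sample names the glucose column of the whole-series table. Each file was assigned by the GEO sample it belongs to and that sample's title and treatment, and every value given per library rests on this assignment.

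The libraries differed greatly in how many rows stood above 0. Of the 18663 rows with a number, 99.5% were above 0 in the glutamine-free library and 2.54% in the glucose-free library. The whole reads behind the values, recovered from the equal steps between low values, came to 1442570 in the glutamine-free and 42827 in the glucose-free library. Rows are headed as long non-coding RNA gene names, although 90 of the 91 members are protein-coding symbols in RefSeq, and SLC22A18 was not matched there. A value is therefore that of the rows listed under a name, which need not be the carrier's messenger RNA. Values are not per length, so an order of values within a library is an order of reads and not of expression. Of the markers of a lung cancer cell line, KRT8, an epithelial keratin, stood at 143 in the glutamine-free and 199.8 in the glucose-free library. KRT18, KRT19 and the mesenchymal marker VIM stood at 75.1, 42.6 and 75.9 in the glutamine-free library and were at 0 in the glucose-free one. FN1, fibronectin, stood at 963 in the glutamine-free and 344 in the glucose-free library, and TGFBI at 331 in the glutamine-free and 138 in the glucose-free library. NAPSA, an aspartic protease of the lung lineage, stood at 18.9 in the glutamine-free and 161 in the glucose-free library, and the other lung lineage markers on the list carried no number. The epithelial markers EPCAM and CDH1 and the mesenchymal marker CDH2 carried no number, and none of the leukocyte markers PTPRC, CD3E and CD68 did.

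As background, a cell deprived of glutamine can draw other amino acids through exchangers and sodium-coupled carriers, and several of these carriers are induced by ATF4, the transcription factor of the amino acid response. ATF4 binds, with C/EBP partners, an element with the core TGATGNAA. Glucose enters most cells through the facilitative carriers of family SLC2, and lactate leaves through family SLC16. The carriers of family SLC25 sit mainly in the inner mitochondrial membrane, where they exchange nucleotides, phosphate, carboxylates and cofactors.

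To show where that core stands near members, the RefSeq windows from 250 bases before to 50 bases after a transcript start of each gene (build GRCh38.p14) were searched on both strands, with a core chosen after the data were seen. The start is the one RefSeq's window is built on, which for SLC3A2 and SLC38A1 lies inside the full span of the gene. Of the 71 members with such a window, 6 (8.45%) held the letters TGATGNAA, against 3.67% of all 27305 windows. The 30 bases around each match follow, on the strand of the gene, with the match in capitals; in SLC3A2 and SLC25A11 the core reads on the opposite strand.
SLC3A2: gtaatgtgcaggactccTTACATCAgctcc
SLC25A11: ttctcgcacgcTTCCATCAagctcctcctt
SLC27A5: ccagaggccagTGATGGAAagggttagcgc
SLC1A3: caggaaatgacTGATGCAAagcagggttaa
SLC23A3: cagttaatggcTGATGGAAtttgcacaaca
SLC38A1: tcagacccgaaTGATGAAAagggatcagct
The SLC3A2 match begins at base 38 after that start, in chr11:62881719-62881748 on the plus strand. The SLC38A1 match begins 4 bases before that start, in chr12:46266502-46266531 on the minus strand, and the SLC1A3 match 220 bases before it, in chr5:36596357-36596386 on the plus strand. The other matches lie 71 bases before the start of SLC25A11 (chr17:4940099-4940128, minus strand), 195 before that of SLC27A5 (chr19:58512169-58512198, minus strand) and 158 before that of SLC23A3 (chr2:219170169-219170198, minus strand). A match is a run of letters and not a binding site. Of the 6 members above 0 in the glucose-free library, 4 had a window and SLC3A2 was the 1 with a match.

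In the glutamine-free library 90 of the 91 members were above 0, against a background of 99.5% of all names. In the glucose-free library 6 of the 91 were, or 6.59%, against a background of 4.25% of all names. By row it was 190 of 192 and 7 of 192, the last being 3.65% against 2.54% of all rows. The 6 names were SLC3A2, SLC2A3, SLC6A15, SLC1A4, SLC25A28 and SLC12A5, and all of them but SLC12A5 were above 0 in both libraries. None of the 15 measured ABC transporter names, the ATP-driven pumps, was above 0 in the glucose-free library, nor was any of the 3 SLC names with another letter than A or the 1 measured name of the organic anion family SLCO.

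SLC3A2 is the heavy subunit that carries the exchangers of large neutral amino acids and of cystine to the cell surface. It stood at 630.4 (797 reads, 95% counting interval 743 to 854) in the glutamine-free library and at 109 (86 reads, 68.8 to 106) in the glucose-free library. Its gene spans chr11:62856109-62888860 in GRCh38.p14, the build of all coordinates here. SLC2A3, a glucose carrier of high affinity, stood at 547 (692 reads, 641 to 746) in the glutamine-free library and at 295 (233 reads, 204 to 265) in the glucose-free library, and its gene lies at chr12:7919230-7936187. These were the members with the most reads in the glutamine-free library, and SLC2A3 held the most of any member in the glucose-free library.

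SLC6A15, a sodium-dependent carrier of branched-chain amino acids and proline known mainly from neurons, stood at 195 (247 reads, 217 to 280) in the glutamine-free and at 192 (152 reads, 129 to 178) in the glucose-free library. Its gene lies at chr12:84859491-84912799. SLC1A4, a carrier of alanine, serine and cysteine, stood at 83.8 (106 reads, 86.8 to 128) in the glutamine-free and at 27.8 (22 reads, 13.8 to 33.3) in the glucose-free library, and lies at chr2:64988479-65023865. The amino acid carriers above 0 in the glucose-free library thus ranged there from 22 to 152 reads.

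SLC25A28, mitoferrin 2, which brings iron into mitochondria, stood at 56.9 (72 reads, 56.3 to 90.7) in the glutamine-free and at 77.1 (61 reads, 46.7 to 78.4) in the glucose-free library. Its gene lies at chr10:99610522-99659286. SLC12A5, a potassium-chloride cotransporter of neurons, was listed at 0 in the glutamine-free library and stood at 44.3 (35 reads, 24.4 to 48.7) in the glucose-free library, and lies at chr20:46021686-46060150. It was the 1 member listed at 0 in the glutamine-free library, on the 1 of its 8 rows that carried a number. Without molecular identifiers a read is not an independent molecule, so all intervals given here cover counting error only.

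**Figure D1:**
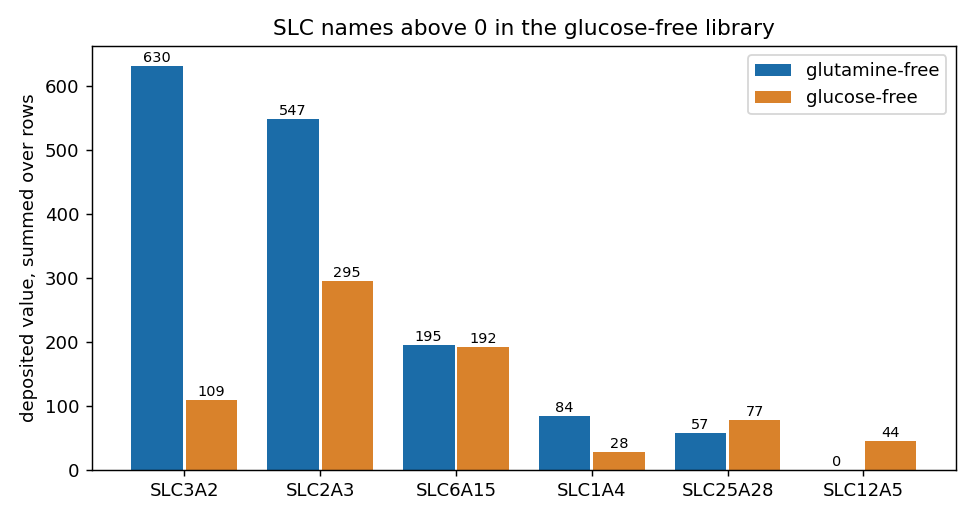
Deposited values, summed over the rows of a name, of the 6 members above 0 in the glucose-free library, with the glutamine-free library in blue on the left and the glucose-free library in orange on the right (1 library each, no error bars). SLC3A2 stood at 630.4 in the glutamine-free and 109 in the glucose-free library, and SLC6A15 at 195 in the glutamine-free and 192 in the glucose-free library.

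On the log2(value + 1) scale, glutamine-free minus glucose-free, the differences were 2.52 for SLC3A2, 1.56 for SLC1A4, 0.89 for SLC2A3, 0.02 for SLC6A15 and -0.43 for SLC25A28. The differences became -1.86, -2.79, -3.50, -4.37 and -4.81 in the same order when the values of each library were rescaled to sum to 1000000. Before rescaling, the values summed to 1140830 in the glutamine-free library, 442573 of it from 1 name, and to 54149 in the glucose-free library. The sign turned for SLC3A2, SLC1A4, SLC2A3 and SLC6A15, so the scale chosen decides which library is higher, and no direction is given. Which scale is apt cannot be told, since the normalization is not stated. By the deposited scale 87 of the 91 members had a 2-fold or higher value in the glutamine-free library, or 95.6% against a background of 97.4%, and 1, SLC12A5, had one in the glucose-free library, or 1.10% against 1.42%. A listed 0 in the glucose-free library stood behind 85 of the 87. The 2 others were SLC3A2 and SLC1A4. The median difference was 4.63 over the members and 4.32 over all names, and both mainly carry the value in the glutamine-free library.

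Ratios between members within a library do not depend on the scale. SLC3A2 had 1.15 reads for each SLC2A3 read (95% exact interval 1.04 to 1.28) in the glutamine-free library and 0.369 (0.285 to 0.475) in the glucose-free library. These intervals do not overlap. SLC6A15 had 0.357 reads per SLC2A3 read (0.307 to 0.413) in the glutamine-free library and 0.652 (0.528 to 0.804) in the glucose-free library, and here too the intervals are apart. SLC25A28 had 0.104 (0.0805 to 0.133) in the glutamine-free and 0.262 (0.194 to 0.348) in the glucose-free library. For SLC1A4 the ratio was 0.153 (0.124 to 0.188) in the glutamine-free and 0.0944 (0.0580 to 0.146) in the glucose-free library, with intervals that overlap. Relative to SLC2A3, over all rows of each name, SLC3A2 was higher in the glutamine-free library and SLC6A15 and SLC25A28 were lower, beyond counting error. The SLC25A28 reads lay on different rows in the libraries, so its ratios do not compare the same rows. SLC2A3, the reference, was the member with the most reads in the glucose-free library. Spread between cultures could not be measured.

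The same names rested on different rows in the libraries. Of the 7 SLC3A2 rows with a number, 2 were above 0 in the glucose-free library, with 65 and 21 reads, and the same rows had 212 and 110 reads in the glutamine-free library. They held 40.4% (37.0 to 43.8%) of the name's reads there. The row with the most SLC3A2 reads in the glutamine-free library, 308, was listed at 0 in the glucose-free library. The ratio of the larger to the smaller of the shared rows was 1.93 (1.52 to 2.45) in the glutamine-free and 3.10 (1.87 to 5.33) in the glucose-free library, and these intervals overlap.

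For SLC2A3, 1 of 5 rows was above 0 in the glucose-free library, with 233 reads. It was also the largest row of the name in the glutamine-free library, with 302 reads, or 43.6% (39.99 to 47.4%) of the name. The next SLC2A3 rows, with 247 and 126 reads in the glutamine-free library, were listed at 0 in the glucose-free library. SLC6A15 showed the opposite order, since the row with all 152 of its reads in the glucose-free library was the smallest of 5 in the glutamine-free library, with 23 of 247 reads, or 9.31% (6.29 to 13.6%). The other SLC6A15 rows had 96, 57, 44 and 27 reads in the glutamine-free library and were listed at 0 in the glucose-free library.

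SLC25A28 had no shared row at all, with 72 reads on 1 row in the glutamine-free library and 61 on the other in the glucose-free library. Its difference between the libraries is therefore one between different rows. SLC1A4 had a single row. Over the rows above 0 in both libraries alone, a choice made after the data were seen, the log2 differences on the deposited scale were 1.22 for SLC3A2, -0.30 for SLC2A3 and -3.33 for SLC6A15. On these rows SLC3A2 had 1.07 reads per SLC2A3 read (0.908 to 1.25) in the glutamine-free and 0.369 (0.285 to 0.475) in the glucose-free library, with intervals apart. SLC6A15 had 0.0762 (0.0475 to 0.116) in the glutamine-free and 0.652 (0.528 to 0.804) in the glucose-free library. SLC1A4 had 0.351 (0.279 to 0.439) in the glutamine-free and 0.0944 (0.0580 to 0.146) in the glucose-free library, which no longer overlap. Rows carry no transcript identifier, so which isoforms these are is not given here.

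**Figure D2:**
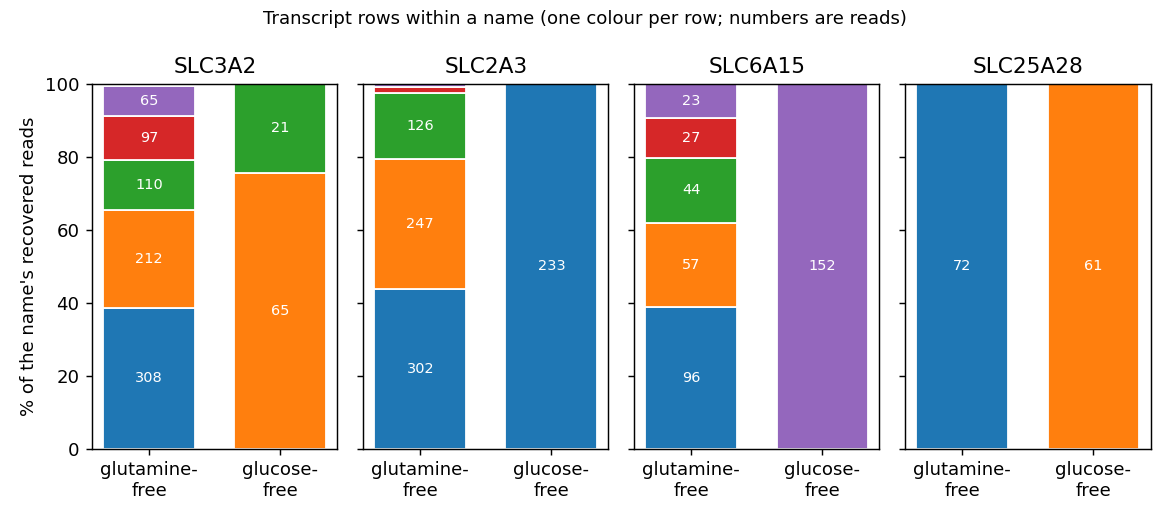
Percent of each name's recovered reads (y axis) on each of its transcript rows, 1 colour per row, in the glutamine-free (left bar) and glucose-free (right bar) library, with read numbers printed on rows above 6%. SLC6A15 rested on its smallest row and SLC25A28 on another row in the glucose-free library, and SLC2A3 on its largest.

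Members with more reads in the glutamine-free library were not always those seen in the glucose-free library. Of the 10 members with the most reads there, SLC3A2 and SLC2A3 were above 0 in the glucose-free library, 2 in all. Among the 20 with the most, SLC6A15 made it 3. The 5 members above 0 in both ranged from 56.9 to 630.4 in the glutamine-free library with a median of 195, and the 85 listed at 0 in the glucose-free library ranged from 1.56 to 465 with a median of 28.5. The 7 rows above 0 in the glucose-free library held 21 to 233 reads, with a median of 61. Over all names the rows above 0 there held 1 to 5566 reads, with a median of 70. The lowest SLC row in the glutamine-free library held 2 reads, the median row 26 and the highest 369.

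Members rested on 1 to 7 rows. Of the 49 with 1 row, 2 were above 0 in the glucose-free library, SLC1A4 and SLC12A5, and the median value in the glutamine-free library was 15.01. Of the 33 with 2 to 4 rows, 1 was, SLC25A28, with a median of 91.7. Of the 9 with 5 or more rows, 3 were, SLC3A2, SLC2A3 and SLC6A15, with a median of 212. Over all names 4.25% were above 0 in the glucose-free library, a share that was not split by row number. A name with more rows has more rows that can be above 0 and that add to its value. The order is therefore not read as a trait of carriers. The members lie on 22 chromosomes.

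By the family number in the name, 18 members belong to amino acid families (SLC1, SLC3, SLC6, SLC7, SLC36, SLC38 and SLC43), 6 to sugar families (SLC2, SLC5 and SLC50), 16 to the mitochondrial family SLC25 and 51 to other families. Names with a number made up 41.9% of the 43 listed amino acid names, 37.5% of the 16 sugar names, 66.7% of the 24 mitochondrial names and 41.5% of the 123 others, against 31.7% over all names. The listed amino acid, mitochondrial and other names include pseudogenes. In the glucose-free library 3 of 18 amino acid members were above 0 (16.7%), 1 of 6 sugar members (16.7%), 1 of 16 mitochondrial members (6.25%) and 1 of 51 others (1.96%), against 4.25% of all names, and each of the last 3 counts is a single name. The median value in the glutamine-free library was 49.8 for amino acid members, 100.01 for sugar members, 40.7 for mitochondrial members and 21.3 for the others, against 20.5 over all names. At 100 or more were 7, 3, 3 and 10 members in that order, or 25.3% of all members against a background of 15.8%.

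**Figure D3:**
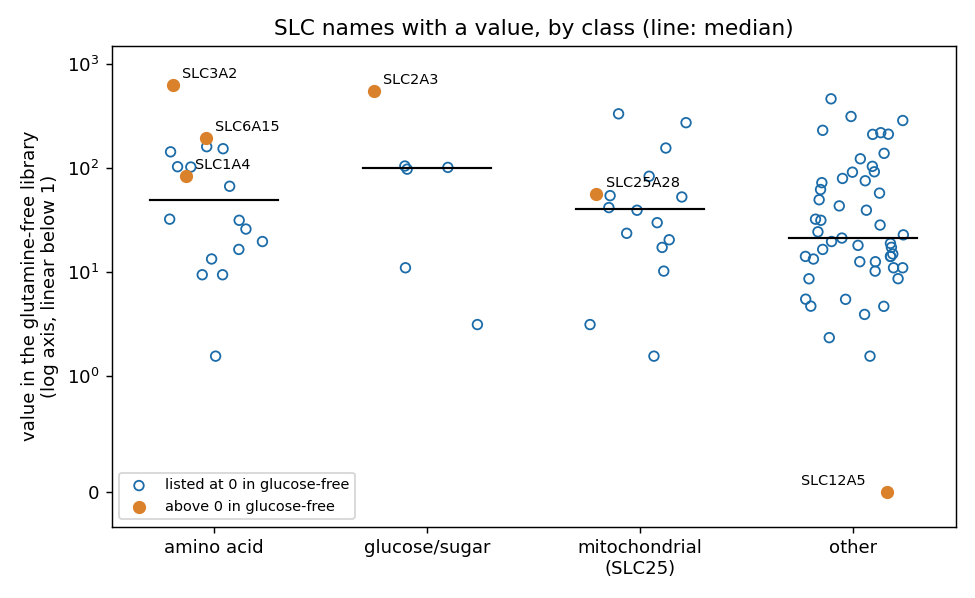
Value of each of the 91 members in the glutamine-free library (y axis, log scale, linear below 1), by class, with the class median as a line; open circles are listed at 0 in the glucose-free library and filled circles are above 0 there. The filled SLC3A2, SLC2A3 and SLC6A15 sit at 630.4, 547 and 195, and SLC12A5 at 0.

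The classes shared the SLC reads differently in the libraries. In the glutamine-free library amino acid members held 24.8% of the 9199 SLC reads (Wilson interval 23.9 to 25.7%), sugar members 11.9% (11.3 to 12.6%), mitochondrial members 16.5% (15.8 to 17.3%) and the others 46.8% (45.8 to 47.8%). In the glucose-free library amino acid members held 44.1% (40.2 to 48.2%) of 589 reads, sugar members 39.6% (35.7 to 43.6%), mitochondrial members 10.4% (8.15 to 13.1%) and the others 5.94% (4.30 to 8.15%). These shares rest on 6 names in the glucose-free library. All of its sugar carrier reads were SLC2A3 reads, from a single row, and without that row the amino acid share was 73.0%. SLC3A2 alone held 8.66% of SLC reads in the glutamine-free library and 14.6% in the glucose-free library. SLC6A15 held 2.69% in the glutamine-free and 25.8% in the glucose-free library.

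**Figure D4:**
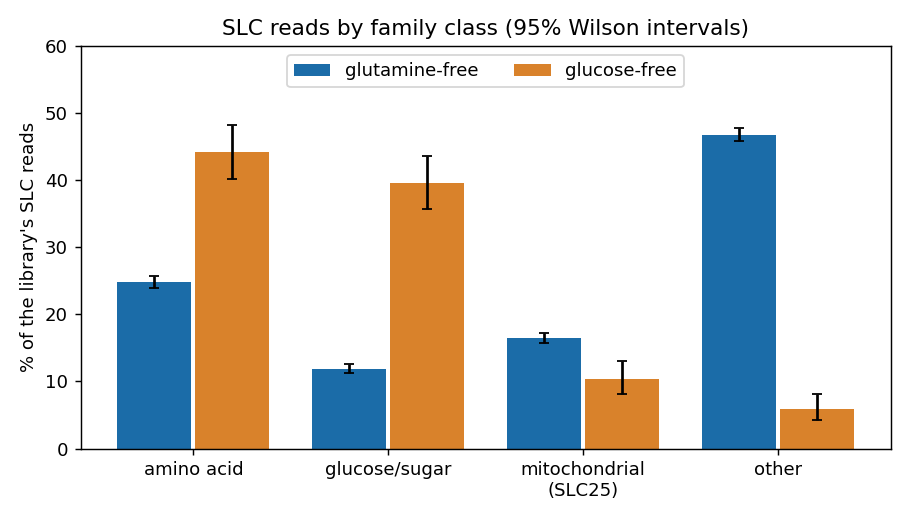
Percent of each library's SLC reads (y axis) held by amino acid, sugar, mitochondrial and other families, glutamine-free in blue and glucose-free in orange, with 95% Wilson intervals for counting error. Other families held 46.8% in the glutamine-free and 5.94% in the glucose-free library.

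All SLC members together held 0.638% (0.625 to 0.651%) of recovered reads in the glutamine-free and 1.38% (1.27 to 1.49%) in the glucose-free library. A single unnamed locus, XLOC_220679, held the most reads in both libraries. Without it the SLC share was 1.04% (1.02 to 1.06%) in the glutamine-free and 1.58% (1.46 to 1.71%) in the glucose-free library. In both forms the share was lower in the glutamine-free library beyond counting error. The glucose-free share rests on 7 rows, and a single SLC2A3 row held 233 of its 589 reads. The shares without that row were not calculated, so the difference is not read as a trait of carriers at large.

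Among the amino acid families, the sodium-coupled neutral carriers of SLC38 had 6 members with a number, each at a listed 0 in the glucose-free library. SLC38A2, which takes up glutamine and alanine and is induced when amino acids run short, stood at 161 in the glutamine-free library, on 5 rows of 36 to 48 reads each. SLC38A10 stood at 144, SLC38A7, a lysosomal exporter of glutamine, at 104, and SLC38A9, the lysosomal arginine sensor upstream of mTORC1, at 16.6. SLC38A5 stood at 13.4 and SLC38A1, the other main glutamine carrier of the cell surface in this family, at 9.47 on 12 reads. The family thus held 567 reads in the glutamine-free library and none in the glucose-free library, where 8860 of all 9253 names were at 0.

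SLC7A5, the light subunit that pairs with SLC3A2 to exchange glutamine for leucine, stood at 103 on its single row in the glutamine-free library and was listed at 0 in the glucose-free library. SLC7A6, another partner of SLC3A2, stood at 67.2 and was likewise listed at 0. The heavy subunit was therefore above 0 in the glucose-free library while neither of these partners was. A listed 0 there was shared by 8860 of all 9253 names. SLC1A3, a glutamate carrier, stood at 32.4, on 1 of its 11 listed rows. In family SLC6, SLC6A6, the taurine carrier, stood at 154, SLC6A8, the creatine carrier, at 31.6, SLC6A9, a glycine carrier, at 19.8 and SLC6A13 at 1.56. SLC36A4, a carrier of proline and tryptophan, stood at 26.1 and SLC43A1, a carrier of large neutral amino acids, at 9.47. Each had a listed 0 in the glucose-free library.

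Of a list of 17 carriers of glutamine and its exchange partners, 13 were among the listed names and 10 carried a number. SLC1A5 and SLC7A11 were not listed by name. All 10 were above 0 in the glutamine-free library, with values that summed to 1208, and 2, SLC3A2 and SLC1A4, in the glucose-free library, with a sum of 137. Over all names 99.5% were above 0 in the glutamine-free and 4.25% in the glucose-free library. None of a list of 6 arginine and lysine carriers was listed by name, so none could carry a number. In a list of 13 genes of amino acid sensing and glutamine use, 6 carried a number and 2 were above 0 in both libraries. ASNS, asparagine synthetase and a standard ATF4 target, stood at 114 (144 reads) in the glutamine-free and 188 (149 reads) in the glucose-free library, and GLUD1, glutamate dehydrogenase, at 204 in the glutamine-free and 101 in the glucose-free library. DDIT4, an inhibitor of mTORC1, stood at 984 in the glutamine-free library and had a listed 0 in the other.

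Among the sugar families, SLC2A1, the glucose carrier of most dividing cells, stood at 102 in the glutamine-free library and was listed at 0 in the glucose-free library. It had 5 rows with a number, as SLC2A3 had, and its largest row held 92 reads. SLC2A13, a proton-coupled inositol carrier, stood at 105. SLC5A6, which carries biotin and pantothenate in spite of its family's sugar name, stood at 98.1, SLC5A2, the sodium-glucose cotransporter of kidney, at 11.1 on 14 reads, and SLC50A1 at 3.15 on 4 reads. Each was listed at 0 in the glucose-free library, so SLC2A3 was the 1 sugar carrier above 0 in both.

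Lactate and pyruvate carriers fall among the other families. SLC16A3, the lactate exporter of glycolytic cells, stood at 315 on 4 rows in the glutamine-free library, and SLC16A1, which works in either direction, at 14.2 on 18 reads. Both were listed at 0 in the glucose-free library. BSG, the chaperone both carriers need to reach the surface, stood at 1311 in the glutamine-free library and was listed at 0 in the glucose-free library. TXNIP, which drives glucose carriers off the surface and is itself induced by glucose, stood at 161 in the glutamine-free library and at a listed 0 in the glucose-free library. Of 18 such partners and non-SLC transport genes, 11 carried a number. VDAC3, a channel of the outer mitochondrial membrane, was the 1 above 0 in the glucose-free library, with 1 read, against 11 reads in the glutamine-free library. Over all names 4.25% were above 0 in the glucose-free library, and a response of TXNIP to glucose was not tested.

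Among the mitochondrial carriers, SLC25A37, mitoferrin 1, held the most reads and stood at 334 in the glutamine-free library, above SLC25A28 at 56.9. In the glucose-free library SLC25A37 was listed at 0 and SLC25A28 stood at 77.1. SLC25A3, the phosphate carrier, stood at 274 in the glutamine-free library, SLC25A39, a carrier of glutathione into mitochondria, at 157, SLC25A11, which exchanges oxoglutarate for malate, at 83.8 and SLC25A1, which exports citrate, at 52.98. SLC25A45 stood at 54.6 and SLC25A30 at 41.9. These were listed at 0 in the glucose-free library.

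Several SLC25 members handle amino acids or cofactors. SLC25A12, the aspartate-glutamate exchanger of the malate-aspartate shuttle, stood at 39.5 in the glutamine-free library, SLC25A18 at 20.5 and SLC25A22, both glutamate importers, at 17.3 on 22 reads over 3 rows. SLC25A29, a carrier of basic amino acids, stood at 30.01, SLC25A26, which imports S-adenosylmethionine, at 23.7, SLC25A42, a carrier of coenzyme A, at 10.3 and SLC25A36 at 1.56. None of them was above 0 in the glucose-free library, where 8860 of all 9253 names were at 0.

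Iron, heme and zinc carriers spread over several families. Of 8 names on the iron and heme list, 7 carried a number and SLC25A28 was the 1 above 0 in the glucose-free library. The background there, for this list and the zinc list, was 4.25% of all names above 0. SLC11A2, which takes up ferrous iron, stood at 213 in the glutamine-free library, SLC39A14, an importer of zinc, manganese and iron, at 139, SLC39A8 at 43.5, SLC48A1, a heme carrier of lysosomes, at 19.8 and SLC46A1, a carrier of folate, at 17.4. The zinc list had 3 of 15 names with a number, SLC30A9 at 11.1, SLC39A9 at 8.66 and SLC39A4 at 5.52 in the glutamine-free library. Each had a listed 0 in the glucose-free library.

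Ion carriers, with SLC4A1AP counted under its family number, made up 18 of the 51 other members and held 2236 of their 4304 reads in the glutamine-free library. SLC20A1, a sodium-phosphate cotransporter that also serves as a retrovirus receptor, stood at 465 and had the SLC row with the most reads, 369. SLC4A2, a chloride-bicarbonate exchanger, stood at 288 on 7 rows. SLC12A9 stood at 219.9 and SLC12A4, a potassium-chloride cotransporter of most tissues, at 212 on 7 rows, while SLC12A2, the sodium-potassium-chloride cotransporter, stood at 1.56 on 2 reads. SLC26A6, an anion exchanger, stood at 123 and SLC9A5, a sodium-proton exchanger, at 104. SLC12A5 was the 1 ion carrier above 0 in the glucose-free library. Of the remaining families, SLC44A1, a choline carrier, stood at 232 and SLC17A9, the vesicular ATP carrier, at 92.5 in the glutamine-free library alone. SLC4A1AP, which stood at 18.97 in the glutamine-free library alone, is named after an anion exchanger it binds and is not itself a carrier.

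In the glutamine-free library 10 of the 91 members were under 5, or 10.99% against 14.6% of all names. They included SLC12A5, which had reads in the glucose-free library alone. Others were SLC15A4 at 4.73, SLC37A3 at 4.71, SLC35A5 at 3.94 and SLC22A14 at 2.35, each on 3 to 6 reads. A listed 0 in the glucose-free library is not read as absence of the RNA, since 8860 of all 9253 names were listed at 0 there.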

How the data were processed

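Total RNA of 95D cells was depleted of ribosomal RNA and sequenced in pairs, per the labels' protocols. The submitters' processing notes name HISAT2 2.0.5, StringTie and hg38 without role or settings; which tool counted, on what annotation and with what normalization is not given in the sources used here. The deposited values have no stated unit and are not whole. In each library low values rose in equal steps, of 0.791 (glutamine-free, offset -0.018) and 1.264 (glucose-free, offset 0.022), which gave whole reads within 0.1 for 100% of values up to 1000 reads. The fit was also run on simulated data built in that same form, which cannot show that the deposited values are whole reads. Rows above 1000 reads, up to 559463 in the glutamine-free library, were not checked in this way. The whole-series table repeated the sample files cell by cell and was not used.

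Rows without a number (73172 of 91835) were left out, values under 1e-09 were set to 0, and rows of a name were summed. Differences are log2(value + 1), which understates those of low names. Intervals are at 95%, exact Poisson for reads, exact binomial for ratios, and Wilson for shares. Members and lists were chosen with earlier results of these data known. Named were all members above 0 in the glucose-free library, the 5 with the highest value in each class, up to 6 of each list, and others that illustrate a family, chosen after their values were seen. Family classes follow the number in the name. Promoter windows and symbols are from RefSeq, assembly GRCh38.p14. Calculations used Python 3.11.15, SciPy 1.17.1 and pandas 2.3.3. A few names within the rule are not reported here.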

Additional observations from a re-analysis of the deposited data

How the results depend on the processing

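With 1 library per condition nothing could be left out and no test was run. The 589 SLC reads recovered in the glucose-free library limit every comparison. Counting transcript rows in place of names gave 190 above 0 in the glutamine-free library. After centring the differences on the median of all names, 37 members in place of 87 lay 2-fold or more above that median and 19 in place of 1 lay 2-fold or more below it. Most of the 19 were names listed at 0 in the glucose-free library with low values in the glutamine-free library, so their value was not higher in the glucose-free library. After rescaling to 1000000, 6 members were 2-fold or more higher in the glucose-free library. The shares of all names at the centred and rescaled settings were not calculated. These counts are therefore not read as particular to carriers. The median difference over members was 7.90 with a pseudocount of 0.1 and 2.52 with 5. Over the members above 0 in both libraries the median was 0.89, and -3.50 after rescaling and -0.30 with the largest row of each name. Rescaling turned SLC3A2 to -1.86, SLC1A4 to -2.79, SLC2A3 to -3.50 and SLC6A15 to -4.37, and the largest row turned SLC2A3 to -0.30 and SLC6A15 to -1.33. On the rows above 0 in both libraries SLC2A3 was at -0.30 and SLC6A15 at -3.33. Without the largest row of the library the class shares were 25.8% for amino acid and 44.6% for other families in the glutamine-free library. In the glucose-free library they were then 73.0% for amino acid, 0% for sugar, 17.1% for mitochondrial and 9.83% for other families. With SLC5 and SLC6 moved to the other families, 2 of those members were above 0 in the glucose-free library. SLC3A2 was at 1.56 with its largest row and 1.22 on the rows above 0 in both, SLC25A28 was at -4.81 after rescaling, and the SLC share of reads without XLOC_220679 lay outside its counting interval, as given above. The remaining settings kept direction and stayed within 1.5 times of the counts, within the counting interval of the shares, or near the main difference.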
